A study of Mus musculus with 15 samples.

Results

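The adrenomedullin and CGRP receptor system was followed through 5 genes in 4T1, a mouse mammary carcinoma cell line that metastasises. They were Calcrl, the gene of the calcitonin receptor-like receptor, the accessory protein genes Ramp1, Ramp2 and Ramp3, and the ligand gene Adm. Calcrl was chosen by its measured difference between Tw1KD and parental cells, a much lower level after depletion of Twist1, and the other 4 genes belong to the same receptor system. Each of the 5 had 1 probe set of its own, out of 19937 genes measured on the arrays. One further probe set carries the symbols of both Malat1 and Ramp2 and was left out.

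In all, 5 groups of 3 arrays each were compared, all of them lines of 4T1. The S42D, S42A and wild-type Twist1 lines were Tw1KD cells in which a Twist1 of that kind was expressed again. The Tw1KD line was 4T1 depleted of its own Twist1, and the parental line is titled parental 4T1 cells. Twist1 is a basic helix-loop-helix transcription factor of epithelial-mesenchymal transition. Serine 42 of Twist1 is a known phosphorylation site of the kinase Akt, alanine at that site cannot be phosphorylated, and aspartate carries a negative charge. For the S42D samples the genotype label lists both substitutions, and the title was used to tell them from S42A. By the labels, all cells grew to 70% confluency under puromycin (4 µg/ml) together with G418 (800 µg/ml), with no separate statement for the parental line. How Twist1 was depleted or expressed again, and whether a line came from 1 clone or a pool, is not given in the sources used here. The labels do not say that replicates came from separate cultures, so the p-values cover the spread between these arrays alone, which may be technical.

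The calcitonin receptor-like receptor is a class B G protein-coupled receptor that reaches the cell surface only together with a receptor activity-modifying protein. With RAMP1 it forms the receptor of calcitonin gene-related peptide (CGRP), and with RAMP2 or RAMP3 it forms receptors of adrenomedullin, the peptide made from the Adm transcript. These receptors couple mainly to the stimulatory G protein and raise cyclic AMP. In most tissues the system is known for vasodilation and for its role in blood and lymphatic endothelium, where Calcrl and Ramp2 are characteristic genes, and Adm is a well-known target of hypoxia-inducible factors.

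Levels are log2 intensities, so a difference of 1 is a doubling. The array medians lay between 6.57 and 6.72. As a rough guide to what a probe set reads without expression, 1194 olfactory and vomeronasal receptor genes had line means with a median of 4.33 and a 95th percentile of 6.09. Probe sets differ in their brightness, so levels were compared between lines for 1 gene and not between genes. Twist1 itself averaged 9.00 ± 0.058 in the S42D line, 8.70 ± 0.099 in the S42A line, 8.33 ± 0.16 in the wild-type Twist1 line, 7.35 ± 0.12 in Tw1KD cells and 9.03 ± 0.031 in parental cells (mean ± SD, n = 3 each). The labels do not say whether this probe set can detect the introduced Twist1. Of 8 mammary carcinoma markers, Krt8 and Krt18 lay above 12 log2 in every line. Epcam, in contrast, averaged 5.63, 5.55 and 5.66 in the S42D, S42A and wild-type Twist1 lines, inside the range of the olfactory and vomeronasal genes, against 9.76 in Tw1KD and 8.36 in parental cells. In the same order of lines, Krt19 averaged 8.62, 6.01, 8.74, 11.10 and 10.07, and Cdh1 7.5, 6.3, 8.5, 11.5 and 10.3. Krt7 stayed at 10.1 to 11.8 and Krt14 at 6.51 to 6.93. Krt5 stayed at 5.73 to 5.97, inside the range of the olfactory and vomeronasal genes in every line.

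Calcrl, the receptor, lies on mouse chromosome 2 (GRCm38.p6, 84330626 to 84425405) and was read by probe set 10484371. It was lower in all 4 derived lines than in parental cells, and lowest in the line that carried wild-type Twist1. Its levels were 8.90, 8.71 and 8.82 in the 3 arrays of the S42D line and 7.63, 7.76 and 7.73 in the S42A line. The wild-type Twist1 line gave 5.06, 4.85 and 5.15. Tw1KD cells gave 6.43, 6.17 and 6.46, against 10.52, 10.49 and 10.50 in parental cells. No array of any line overlapped with those of another line. The order from high to low was parental, S42D, S42A, Tw1KD and wild-type Twist1, and each step between neighbours was at least 1.10 log2, while the SD within lines was 0.018 to 0.16. In these bulk samples, fewer cells with the transcript and less transcript per cell cannot be told apart.

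The comparison that led to the choice of Calcrl is a description only. In Tw1KD cells Calcrl averaged 6.35 ± 0.16, against 10.50 ± 0.018 in parental cells, a difference of -4.15 ± 0.084 log2 (SE, n = 3) or 17.7-fold. It was the gene with rank 3 among all differences toward lower levels. In the same comparison 36.3% of all genes were called at an adjusted p under 0.05. Against the same Tw1KD arrays, Calcrl was higher by 2.45 ± 0.084 in the S42D line and by 1.35 ± 0.084 in the S42A line, and the difference was -1.33 ± 0.084 in the wild-type Twist1 line. These 3 values share the Tw1KD arrays that the choice used and were not tested. Against parental cells, which the choice also used, the differences were -1.70 ± 0.084 for S42D, -2.80 ± 0.084 for S42A and -5.48 ± 0.084 for wild-type Twist1. Over the 5 lines the means of Calcrl spanned 5.48 log2, and 7 genes of the 19937 had a larger span.

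The difference by which Calcrl was chosen did not use the arrays of the 3 re-expressing lines. These lines were tested against each other, though the choice was made with earlier results of these data known. The p-values come from limma (2-sided) and were adjusted by the Benjamini-Hochberg method over all genes. Calcrl was higher in the S42D line than in the wild-type Twist1 line by 3.78 ± 0.084 log2, or 13.8-fold (adjusted p = 2.69e-13), and the 3 S42D arrays all lay above the 3 wild-type arrays. It was higher in the S42A line than in the wild-type Twist1 line by 2.68 ± 0.084, or 6.42-fold (adjusted p = 1.06e-11). Between the substituted forms, the S42D line exceeded the S42A line by 1.10 ± 0.084, or 2.15-fold (adjusted p = 1.02e-07). By absolute size Calcrl had rank 18 of 19937 genes between S42D and wild-type Twist1, and rank 59 between S42A and wild-type Twist1. The wild-type level of 5.02 exceeded 76.9% of the line means of olfactory and vomeronasal genes, a range in which folds are understated. Twist1 ran in the same order over these 3 lines, 9.00, 8.70 and 8.33 in S42D, S42A and wild type, and the part of its level in the Calcrl result was not tested.

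**Figure D1:**
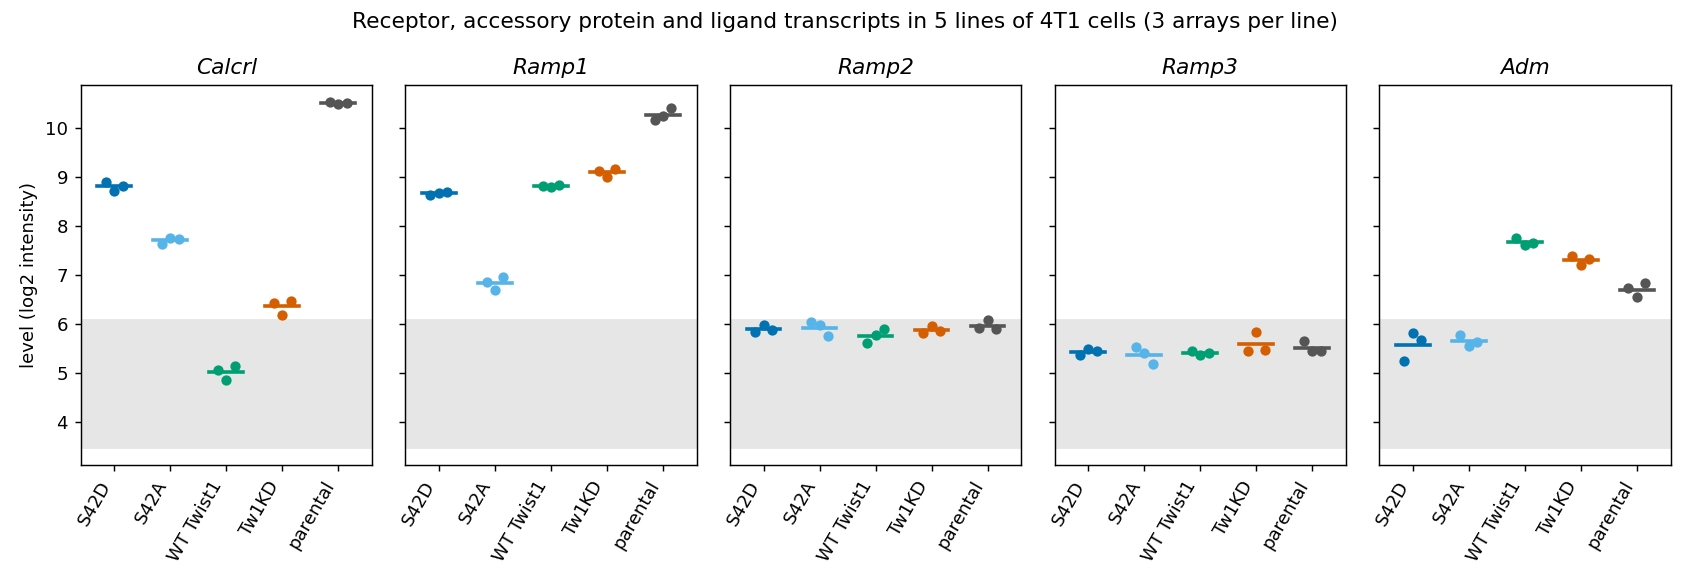
Level (log2 intensity) of the 5 genes on every array, with lines from S42D to parental along the x axis. Points are arrays, bars are line means (n = 3), and the grey band spans the 5th to 95th percentile (3.47 to 6.09) of olfactory and vomeronasal receptor genes. Calcrl separates all 5 lines, Ramp1 is lowest in S42A, Adm is inside the band in S42D and S42A, and Ramp2 and Ramp3 lie inside it in every line.

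The promoters of the 3 genes that varied between lines are shown because Twist1 and other helix-loop-helix factors bind E-boxes (CANNTG). Each runs 5′ to 3′ from 250 bases before to 50 bases after the transcript start, from RefSeq on GRCm38.p6, with matches to CANNTG in capitals. The regions are chr2:84425217-84425516 (minus strand) for Calcrl, chr1:91179572-91179871 (plus strand) for Ramp1 and chr7:110627407-110627706 (plus strand) for Adm. The Calcrl window is set on a transcript start inside the gene, whose 5′ end is at 84425405, while those of Ramp1 and Adm are set on the gene's 5′ end.
Calcrl: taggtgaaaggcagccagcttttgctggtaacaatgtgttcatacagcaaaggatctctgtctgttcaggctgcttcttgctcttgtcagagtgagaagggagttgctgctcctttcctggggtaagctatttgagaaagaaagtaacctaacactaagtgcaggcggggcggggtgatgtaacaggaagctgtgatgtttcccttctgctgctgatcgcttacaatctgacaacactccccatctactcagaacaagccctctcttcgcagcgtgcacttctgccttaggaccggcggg
Ramp1: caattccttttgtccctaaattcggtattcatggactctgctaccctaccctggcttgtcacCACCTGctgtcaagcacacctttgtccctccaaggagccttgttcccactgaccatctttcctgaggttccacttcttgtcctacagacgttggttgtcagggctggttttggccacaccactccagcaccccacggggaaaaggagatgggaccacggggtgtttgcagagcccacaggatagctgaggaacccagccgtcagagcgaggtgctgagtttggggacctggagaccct
Adm: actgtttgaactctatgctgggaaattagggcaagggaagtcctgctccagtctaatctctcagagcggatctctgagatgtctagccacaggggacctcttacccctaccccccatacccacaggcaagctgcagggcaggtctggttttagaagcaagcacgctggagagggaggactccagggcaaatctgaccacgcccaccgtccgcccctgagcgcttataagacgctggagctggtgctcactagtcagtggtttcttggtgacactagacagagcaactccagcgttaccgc
The Ramp1 window held 1 match, CACCTG at position -188 from the start, and the windows of Calcrl and Adm held none. The Ramp3 window, not shown, also held CACCTG, at position -130, so 2 of the 4 members with a window held CANNTG. Of 32851 promoter windows of this length, 72.3% held at least 1 CANNTG. Neither ACGTG, the core of the hypoxia response element and present in 19.6% of windows on either strand, nor TGACG, the core of the cyclic AMP response element (20.8%), was found in the Calcrl or Adm window. A CACGTG site would count both as CANNTG and as ACGTG. Ramp1 held 1 TGACG, on the opposite strand, at position 11 from the start. The absence of these letters says nothing of sites outside the windows.

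Ramp1, the accessory protein of the CGRP receptor, was read by probe set 10348537 (chromosome 1, 91179822 to 91225196). It fell in the S42A line far below every other line, and was highest in parental cells. Its levels were 8.64, 8.66 and 8.70 in the S42D line and 6.85, 6.69 and 6.96 in the S42A line. Wild-type Twist1 cells gave 8.82, 8.79 and 8.82, Tw1KD cells 9.13, 8.99 and 9.15, and parental cells 10.16, 10.24 and 10.40. The S42A arrays lay well below all others, while S42D and wild type, which were next to each other in the order, did not overlap either but differed by less than 0.2 log2 in their means.

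Against Tw1KD, Ramp1 fell by 2.26 ± 0.071 log2 in the S42A line (4.78-fold, adjusted p = 5.18e-12) and by 0.42 ± 0.071 in the S42D line (adjusted p = 0.000167). In the wild-type Twist1 line it fell by 0.28 ± 0.071 (adjusted p = 0.00444), a call that was lost when each array was centred on its median (-0.19, adjusted p = 0.067). The S42A line was also lower than the wild-type Twist1 line, with a difference of -1.98 ± 0.071 (3.94-fold, adjusted p = 4.01e-11). The S42D line exceeded the S42A line by 1.83 ± 0.071 (3.56-fold, adjusted p = 7.28e-11). Between S42D and wild type the difference was -0.15 ± 0.071, with a 95% interval of -0.30 to 0.0072 (adjusted p = 0.124). It was called when only these lines were fitted (adjusted p = 0.0116).

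Relative to parental cells Ramp1 was lower in all 3 re-expressing lines, with differences of -1.60 ± 0.071 for S42D, -3.43 ± 0.071 for S42A and -1.46 ± 0.071 for wild-type Twist1 (limma adjusted p = 3.96e-10, 8.88e-14 and 5.94e-10). Tw1KD averaged 9.09 ± 0.086, against 10.27 ± 0.12 in parental cells, a difference of -1.18 ± 0.071 that belongs to the comparison behind the choice and was not tested. The S42A line thus combined an intermediate level of Calcrl with the lowest level of Ramp1, and the wild-type Twist1 line the lowest Calcrl with a Ramp1 level close to that of S42D.

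**Figure D2:**
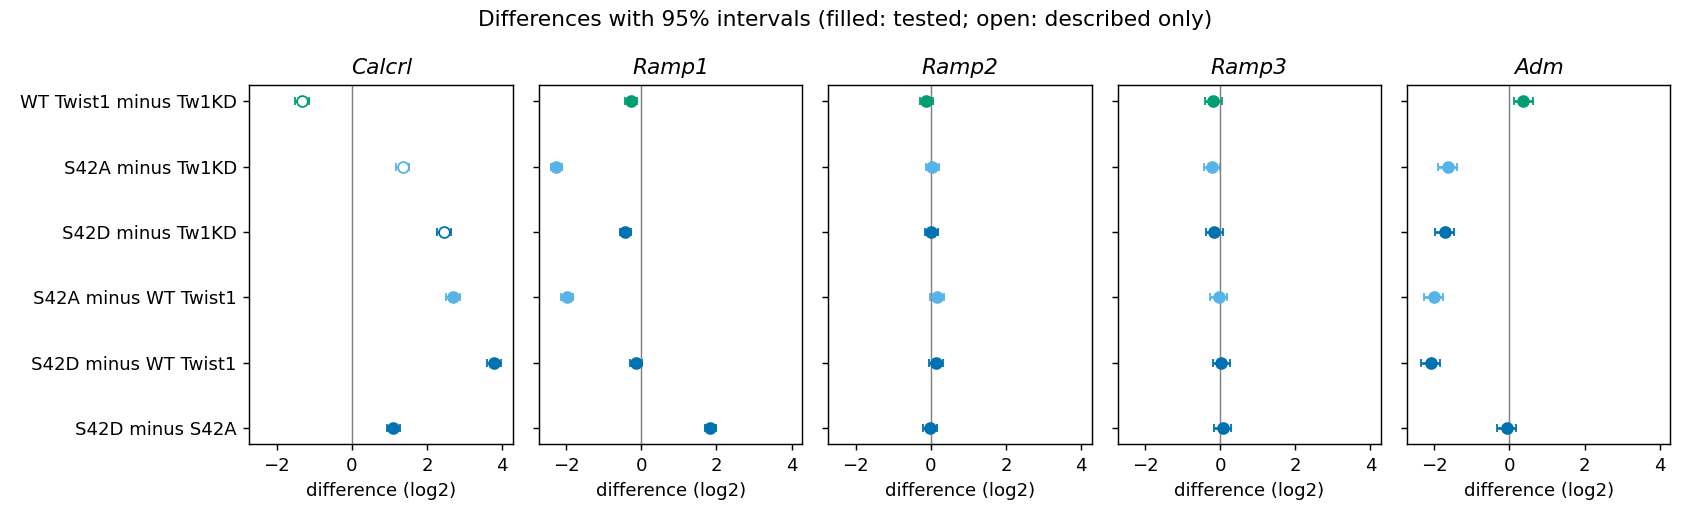
Difference (log2, x axis) between lines for each of the 5 genes, with 95% intervals from the limma fit (3 arrays per line). Filled points were tested and open points are described only. Calcrl was higher in S42D and S42A than in wild type, Ramp1 was lower wherever S42A stood on top, and Adm was lower in both S42D and S42A than in wild type.

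Ramp2 and Ramp3, the accessory proteins of the adrenomedullin receptors, showed no called difference in any tested comparison. Ramp2 (probe set 10381298, chromosome 11, 101246334 to 101248250) ranged from 5.61 to 6.07 over all 15 arrays. Its line means were 5.89 in S42D, 5.92 in S42A, 5.76 in wild-type Twist1, 5.87 in Tw1KD and 5.96 in parental cells, and the arrays of every pair of lines overlapped. Ramp3 (probe set 10374197, chromosome 11, 6658506 to 6677478) ranged from 5.18 to 5.84, with line means of 5.43, 5.37, 5.40, 5.58 and 5.51 in the same order of lines. All these values lay below the 95th percentile of the olfactory and vomeronasal genes.

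For Ramp2 the largest tested difference was -0.20 ± 0.085 between wild-type Twist1 and parental cells (95% interval -0.38 to -0.017, adjusted p = 0.0662). For Ramp3 it was -0.22 ± 0.10 between S42A and Tw1KD (95% interval -0.44 to 0.0051, adjusted p = 0.115). At a level this close to the array background, the intervals limit the measured signal and not the amount of transcript.

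Adm, the ligand gene, was read by probe set 10556297 (chromosome 7, 110627657 to 110629820). Its level was highest with wild-type Twist1 and next in Tw1KD cells, the lines with the lowest Calcrl, and lowest in S42D and S42A. The S42D line gave 5.24, 5.82 and 5.66 and the S42A line 5.77, 5.56 and 5.62. The wild-type Twist1 line gave 7.75, 7.61 and 7.64. Tw1KD cells gave 7.37, 7.20 and 7.32, against 6.72, 6.54 and 6.82 in parental cells. The S42D and S42A arrays overlapped with each other and lay below the arrays of the 3 other lines, which did not overlap among themselves.

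Adm fell against Tw1KD by 1.72 ± 0.12 log2 in the S42D line (3.30-fold, adjusted p = 2.13e-08) and by 1.65 ± 0.12 in the S42A line (3.14-fold, adjusted p = 3.32e-08). In the wild-type Twist1 line it rose by 0.37 ± 0.12 (1.29-fold, adjusted p = 0.0187). That rise was not called without wild-type replicate 1 (0.33, adjusted p = 0.0689) or without Tw1KD replicate 2 (0.32, adjusted p = 0.0715). The substituted forms also differed from wild type directly, S42D by -2.09 ± 0.12 (4.27-fold, adjusted p = 2.53e-09) and S42A by -2.02 ± 0.12 (4.06-fold, adjusted p = 6.09e-09). Between S42D and S42A the difference was -0.073 ± 0.12, with a 95% interval of -0.33 to 0.18 (adjusted p = 0.711).

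Against parental cells Adm was lower by 1.12 ± 0.12 in the S42D line and by 1.05 ± 0.12 in the S42A line, and higher by 0.97 ± 0.12 in the wild-type Twist1 line (limma adjusted p = 3.16e-06, 4.51e-06 and 7.56e-06). Tw1KD averaged 7.30 ± 0.088, against 6.70 ± 0.14 in parental cells, a described difference of 0.60 ± 0.12. The mean levels in S42D and S42A exceeded 88.6% and 89.7% of the line means of olfactory and vomeronasal genes, so the folds that involve these lines are understated to an unknown degree.

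Counted over the system, Ramp1 and Adm were called and Ramp2 and Ramp3 were not in each of the 3 comparisons with Tw1KD, which makes 2 of 4 tested members. The shares of all genes called were 43.4% for S42D, 42.5% for S42A and 48.0% for wild-type Twist1. Against parental cells the count was again 2 of 4, beside 37.0% of all genes for S42D, 40.3% for S42A and 49.0% for wild type. Calcrl, Ramp1 and Adm made 3 of 5 called between S42A and wild-type Twist1, where 40.0% of all genes were called. Calcrl and Adm made 2 of 5 between S42D and wild type (43.3% of all genes), and Calcrl and Ramp1 made 2 of 5 between S42D and S42A (36.1% of all genes). By direction, 20.0% of all genes were called higher and 20.0% lower between S42A and wild type, and 20.7% higher and 22.6% lower between S42D and wild type. With 4 or 5 members, these counts are not far from the shares over all genes. The comparisons with Tw1KD share its 3 arrays, as those with parental cells share theirs.

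**Figure D3:**
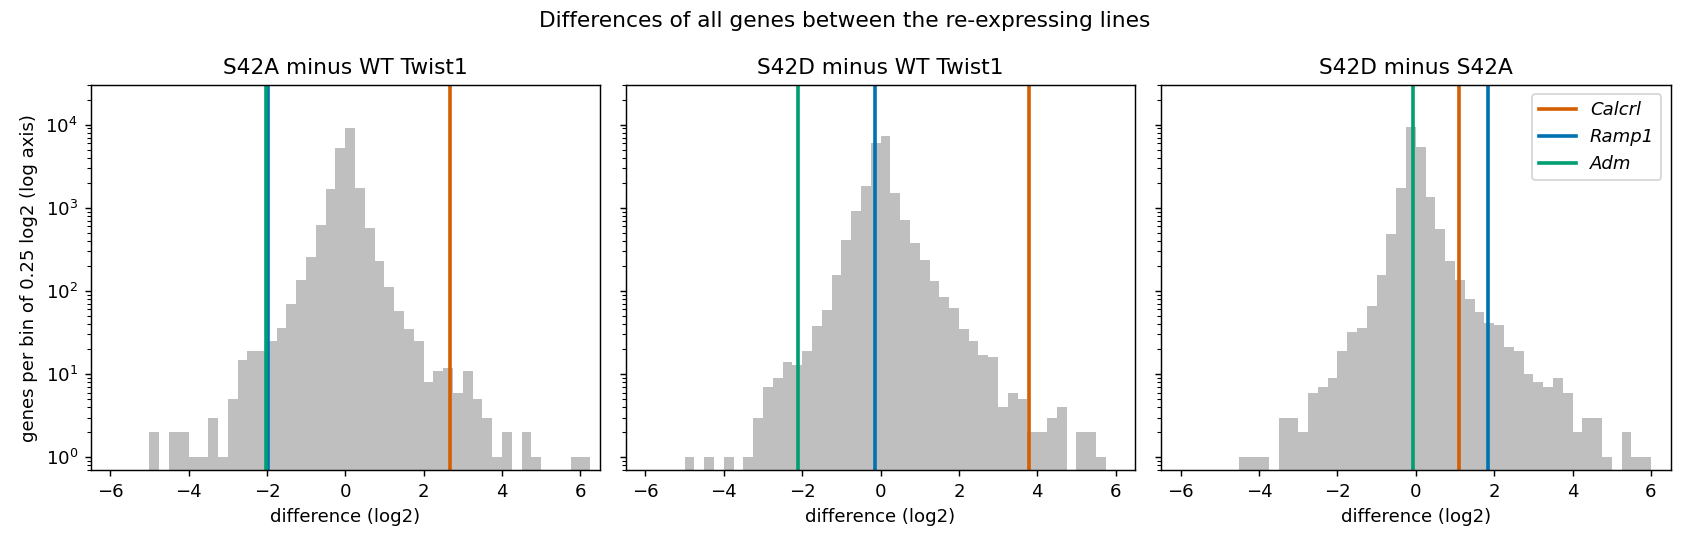
Number of genes (log axis) per bin of difference (log2) between the re-expressing lines, over all 19937 genes, with vertical lines at Calcrl, Ramp1 and Adm. Calcrl lies in the upper tail of both comparisons with wild type (2.68 and 3.78), Adm in the lower tail of both (-2.02 and -2.09), and Ramp1 in the lower tail for S42A (-1.98) and the upper tail for S42D minus S42A (1.83).

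Genes with a profile most like that of Calcrl were sought among 2509 genes whose line means spanned at least 1 log2, by Pearson's r over the 15 arrays, which come from only 5 lines. The 5 highest were Ptov1 (r = 0.990), Gdpd5 (0.988), Stat3 (0.987), Ptgds (0.984) and Mob3b (0.982). Stat3 encodes a cytokine-activated transcription factor, and Ptgds a prostaglandin D synthase. All 5 were highest in parental cells and lowest in the wild-type Twist1 line, as Calcrl was, but over smaller ranges of 1.02 to 1.64 log2. Stat3, for instance, averaged 10.95 in S42D, 10.71 in S42A, 10.16 in wild-type Twist1, 10.53 in Tw1KD and 11.18 in parental cells.

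For Ramp1 the 3 nearest profiles were those of Dpy19l3 (r = 0.988), the kinesin gene Kif21b (0.982) and the deubiquitinase gene Usp11 (0.971), each lowest in S42A. Usp11 averaged 9.37 in S42D, 7.52 in S42A, 8.85 in wild-type Twist1, 9.70 in Tw1KD and 10.47 in parental cells. For Adm they were Gatm (0.986), which encodes the first enzyme of creatine synthesis, the autophagy gene Dram1 (0.973) and Bend6 (0.971). Gatm spanned 4.94 log2 and averaged 5.54 in S42D, 5.47 in S42A, 10.41 in wild-type Twist1, 9.50 in Tw1KD and 8.19 in parental cells. Between members, r over the 5 line means was 0.34 for Calcrl and Ramp1, -0.58 for Calcrl and Adm, and 0.50 for Ramp1 and Adm, a description of 5 points.

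**Figure D4:**
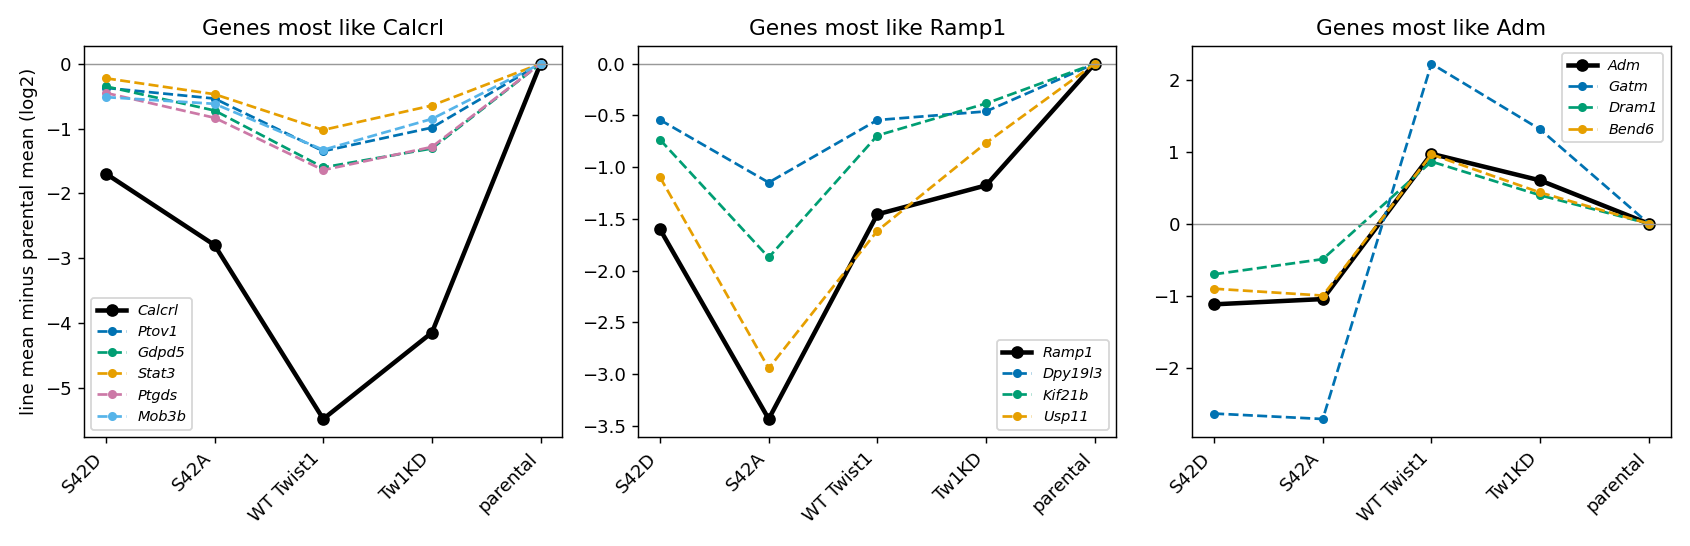
Line mean minus parental mean (log2, y axis) for Calcrl, Ramp1 and Adm (black) and for the genes with the highest Pearson r to each (dashed); the lines only guide the eye. Calcrl spans 5.48 log2 where its 5 nearest genes span 1.02 to 1.64, and Gatm spans more than Adm.

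Most other ligands and receptors of the family lay near the array background. Of 8 on the list, 7 were measured by a probe set of 1 gene, and 4 of them, Adm2, Iapp, Calcr and Gpr182, stayed at 4.38 to 6.28 as line means. Calcb, which encodes beta CGRP, a ligand of the Calcrl and Ramp1 receptor, was highest in Tw1KD cells. It averaged 6.06 in S42D, 6.11 in S42A and 6.09 in wild-type Twist1, against 7.08 ± 0.089 in Tw1KD, and fell by 1.02 ± 0.086, 0.97 ± 0.086 and 0.99 ± 0.086 (limma adjusted p = 1.71e-07, 2.79e-07 and 2.11e-07). Parental cells averaged 6.06 ± 0.19, so Calcb lay at the edge of the background in every line but Tw1KD. Ackr3, an atypical receptor that binds adrenomedullin and the chemokine CXCL12, was lowest in S42A. It averaged 7.57 ± 0.0089 in S42D, 6.45 ± 0.23 in S42A and 7.06 ± 0.087 in wild-type Twist1, and S42D exceeded S42A by 1.12 ± 0.090 (adjusted p = 1.73e-07). Crcp, the CGRP receptor component, was highest in wild-type Twist1 and differed there by 0.48 ± 0.058 from Tw1KD (adjusted p = 6.12e-06).

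Processing and breakdown of the peptides was covered by 12 genes, of which 10 were measured. Ece1, the endothelin-converting enzyme that also acts on CGRP in endosomes, rose by 0.97 ± 0.041 in S42D against Tw1KD (adjusted p = 1.21e-10) and exceeded wild-type Twist1 by 1.33 ± 0.041 (adjusted p = 5.87e-12). Its means were 11.67 in S42D, 10.50 in S42A, 10.34 in wild-type Twist1, 10.70 in Tw1KD and 11.05 in parental cells. Pam, which amidates the C terminus of adrenomedullin and CGRP, varied little, from 11.49 in S42A to 11.84 in parental cells. Mme, the gene of neprilysin, stayed at 4.32 to 4.40. Between S42D and wild type 4 of the 10 were called higher and 2 lower, beside 43.3% of all genes called, with a median of 0.068 against 0.010 over all genes. Between S42A and wild type 3 were higher and 2 lower, near the 40.0% called over all genes.

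Downstream, 28 of 31 genes of stimulatory G protein and cyclic AMP signalling were measured. Between S42D and wild-type Twist1, 11 were called higher and 6 lower, beside 43.3% of all genes called, with a median of 0.061 against 0.010 over all genes. Between S42A and wild type 7 were higher and 9 lower, beside 40.0% of all genes called (median 0.054, against 0.041 over all genes). Pde4d, a cyclic AMP phosphodiesterase, averaged 8.48 ± 0.032 in S42D, 7.34 ± 0.098 in S42A, 7.74 ± 0.040 in wild-type Twist1, 7.04 ± 0.24 in Tw1KD and 9.74 ± 0.091 in parental cells. It rose by 1.44 ± 0.094 in S42D against Tw1KD (adjusted p = 1.23e-08) and exceeded wild type by 0.74 ± 0.094 (adjusted p = 1.11e-05). Like Calcrl, Pde4d was highest in parental cells and next in S42D, but its lowest level was in Tw1KD and not in the wild-type line. Prkar2b, a regulatory subunit of protein kinase A, rose against Tw1KD by 1.35 ± 0.055 in S42D, 1.63 ± 0.055 in S42A and 1.10 ± 0.055 in wild type (limma adjusted p = 8.4e-11, 1.11e-11 and 7.16e-10). Adcy7, an adenylyl cyclase, was 0.97 ± 0.042 higher in S42D than in S42A (adjusted p = 2.23e-10).

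Of 15 genes known to respond to cyclic AMP, 14 were measured. Between S42A and wild-type Twist1 7 were called higher and 3 lower, or 71.4% of the list beside 40.0% of all genes, and between S42D and wild type 8 were higher and 2 lower, also 71.4%, beside 43.3% of all genes. The median differences were 0.18 and 0.16, beside 0.041 and 0.010 over all genes. Over all 10 comparisons the share of the list called ran between 64.3% and 78.6%, and that of all genes between 36.1% and 49.0%. These shares are not alike. All 19937 genes include dim ones, and only 13549 remained when dim genes were left out. Most genes of this list lay above the background range, and the list was drawn up with earlier results of these data known. Whether the list differs from other genes of like brightness was not tested. Ppargc1a, the coactivator PGC-1 alpha, averaged 8.93 ± 0.069 in S42D, 11.27 ± 0.029 in S42A, 5.51 ± 0.26 in wild-type Twist1, 7.23 ± 0.061 in Tw1KD and 5.53 ± 0.21 in parental cells. It exceeded wild type by 5.76 ± 0.11 in S42A and 3.43 ± 0.11 in S42D (limma adjusted p = 1.2e-13 and 1.32e-11). Rgs2, a regulator of G protein signalling, averaged 8.81 ± 0.14 in S42D and 9.34 ± 0.083 in S42A, against 6.16 ± 0.041 in wild type, with differences of 2.64 ± 0.089 and 3.17 ± 0.089 (limma adjusted p = 1.36e-11 and 3.29e-12). Parental cells, which had the highest Calcrl, gave 6.53 ± 0.15 for Rgs2, so neither gene ran in the order of Calcrl. Nr4a2, an immediate early nuclear receptor, averaged 9.23 in S42D, 8.79 in S42A and 8.08 in wild type, and was 1.16 ± 0.080 higher in S42D than in wild type (adjusted p = 2.02e-08). Id1, an inhibitor of helix-loop-helix factors, went the other way, with a difference of -1.05 ± 0.051 between S42D and wild type (adjusted p = 5.15e-10).

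**Figure D5:**
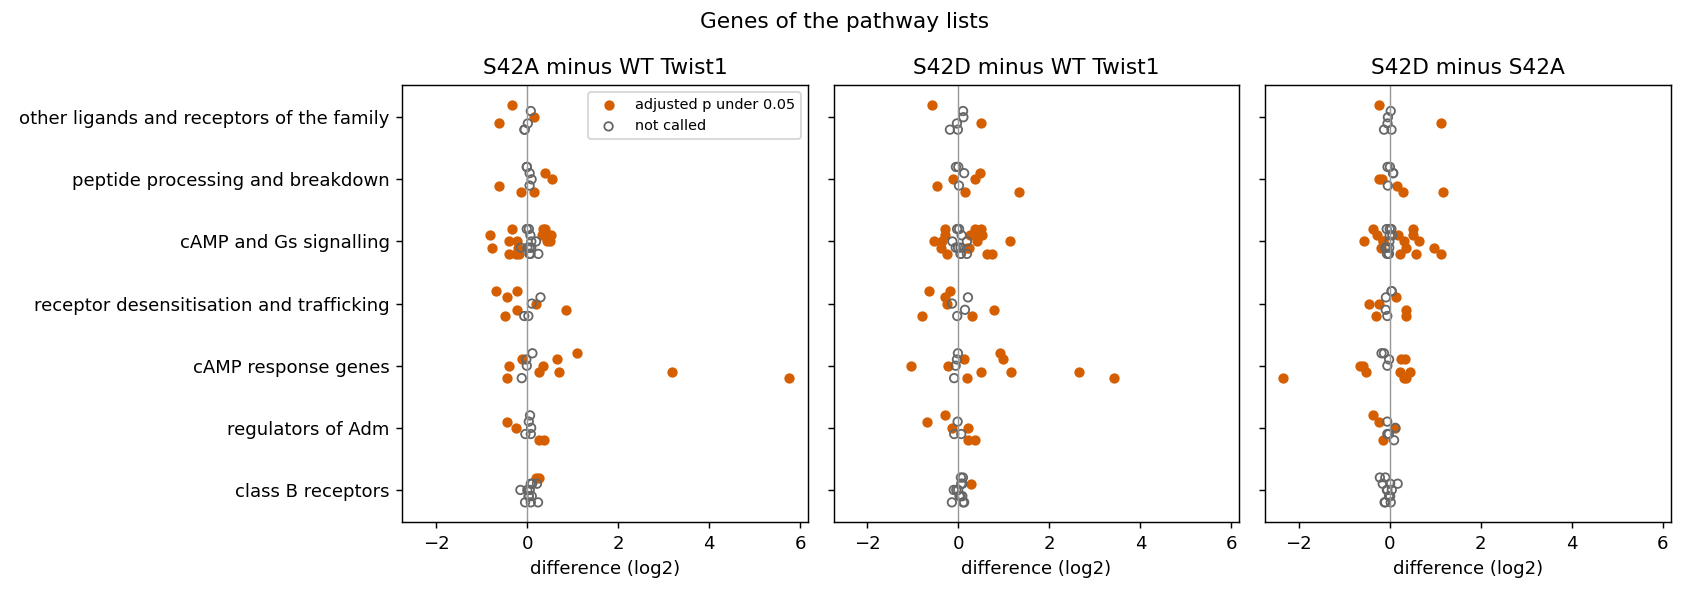
Difference (log2, x axis) of each measured gene of 7 lists between the re-expressing lines; filled points had an adjusted p under 0.05. In S42A and S42D minus wild type the cyclic AMP response genes hold the points farthest to the right, Ppargc1a (5.76 and 3.43) and Rgs2 (3.17 and 2.64). In S42D minus S42A Ppargc1a is farthest to the left (-2.34) and Ece1 farthest to the right (1.17). Class B receptors stay within 0.29 of 0.

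Desensitisation and trafficking genes (11 of 12 measured) were called in both directions, 2 higher and 5 lower in each of the comparisons of S42D and S42A with wild type, beside 43.3% and 40.0% of all genes called in either direction. The beta-arrestin gene Arrb1 fell in all 3 re-expressing lines against Tw1KD, by 0.75 ± 0.052 in S42D, 0.70 ± 0.052 in S42A and 0.72 ± 0.052 in wild type (limma adjusted p = 2.08e-08, 4.54e-08 and 2.73e-08). The receptor kinase gene Grk5 was highest in wild type, where it rose by 1.04 ± 0.092 against Tw1KD (adjusted p = 2.64e-07). Slc9a3r1, a scaffold known to bind RAMP3, was higher than in wild type by 0.78 ± 0.039 in S42D and 0.86 ± 0.039 in S42A (limma adjusted p = 6.8e-10 and 3.68e-10).

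Among 9 known regulators of Adm, all measured, Hif1a and Epas1 encode hypoxia-inducible factors. Hif1a was higher than in wild type by 0.36 ± 0.039 in S42D and 0.27 ± 0.039 in S42A (limma adjusted p = 1.85e-06 and 5.05e-05), the lines in which Adm was lowest. Its highest mean was in Tw1KD cells, where Adm was second only to wild type. Hif1a averaged 12.02 in S42D, 11.92 in S42A, 11.65 in wild type, 12.03 in Tw1KD and 11.83 in parental cells. The difference between Tw1KD and parental cells was 0.20 ± 0.039, and that between S42A and Tw1KD was -0.11 ± 0.039 (limma adjusted p = 0.0331), a call lost in 7 of 13 alternatives. Klf2, a shear-stress-responsive transcription factor gene, fell against Tw1KD by 1.27 ± 0.056 in S42D, 1.39 ± 0.056 in S42A and 1.48 ± 0.056 in wild type (limma adjusted p = 2e-10, 7.21e-11 and 4.27e-11). Klf4 had its highest mean in wild type. Against wild type it differed by -0.69 ± 0.058 in S42D and -0.45 ± 0.058 in S42A (limma adjusted p = 1.75e-07 and 1.92e-05). It averaged 8.55 in S42D, 8.79 in S42A, 9.24 in wild type, 8.47 in Tw1KD and 9.14 in parental cells. Between S42D and wild type 3 of the 9 regulators were called higher and 3 lower, beside 43.3% of all genes called. Between S42A and wild type 2 were higher and 2 lower, beside 40.0%. Of the 14 class B receptors other than Calcrl, 1 was called higher between S42D and wild type (Adcyap1r1, 0.29 ± 0.095, adjusted p = 0.0253) and 2 between S42A and wild type, Gipr (0.27 ± 0.091, adjusted p = 0.0275) and Pth1r (0.20 ± 0.072, adjusted p = 0.0426). The Adcyap1r1, Gipr and Pth1r calls were each lost in at least 4 of 13 alternatives. None was called between S42D and S42A. The shares of all genes called were 43.3% for S42D minus wild type, 40.0% for S42A minus wild type and 36.1% for S42D minus S42A.

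Endothelial genes were examined because Calcrl is a characteristic gene of that cell type. Averaged over 15 markers, the arrays lay at 6.29 to 6.41 in S42D, 6.14 to 6.24 in S42A, 6.06 to 6.11 in wild-type Twist1, 5.998 to 6.106 in Tw1KD and 6.09 to 6.17 in parental cells. In each line 9 or 10 of the 15 lay below the 95th percentile of the olfactory and vomeronasal genes. Among these, the line means of Pecam1, Kdr, Tek and Emcn were at most 5.60 in every line. Egfl7 (8.10 to 8.81), Vwf (6.75 to 6.91), Tie1 (6.41 to 6.72) and Cldn5 (6.46 to 6.67) lay above that percentile in every line. Cdh5, the gene of VE-cadherin, averaged 10.67 in S42D, 7.26 in S42A, 6.35 in wild type, 5.99 in Tw1KD and 5.66 in parental cells, where Calcrl was highest. Flt1 averaged 8.86, 9.20, 9.58, 7.45 and 9.78 in the same order of lines. The part of these genes in the Calcrl result was not tested.

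Fibroblast and leukocyte markers were read in the same way. Averaged over 8 fibroblast markers, the arrays lay at 7.45 to 7.58 in S42D, 6.94 to 7.08 in S42A, 6.79 to 6.87 in wild-type Twist1, 6.58 to 6.77 in Tw1KD and 7.24 to 7.29 in parental cells. Pdgfra, a growth factor receptor gene, averaged 11.38 in S42D, 10.85 in S42A, 9.83 in wild type, 9.60 in Tw1KD and 11.29 in parental cells. Like Calcrl, it was higher in S42D, S42A and parental cells than in wild type and Tw1KD. Pdgfrb averaged 10.55 in S42D, 6.86 in S42A, 7.93 in wild type, 6.36 in Tw1KD and 8.45 in parental cells. Between S42D and wild type, 3 of the 8 fibroblast markers were called higher and none lower, beside 43.3% of all genes called. The collagen genes Col1a1 and Col1a2 stayed within 7.12 to 7.71, and Lum at 3.66 to 3.74, inside the background range. Over 7 leukocyte markers the array means lay at 6.46 to 6.57 in S42D, 6.49 to 6.57 in S42A, 6.490 to 6.499 in wild type, 6.59 to 6.67 in Tw1KD and 6.26 to 6.31 in parental cells. Of these 7, Ptprc, Adgre1, Csf1r and Itgam lay inside the background range in every line. Cd68, a lysosomal protein gene, averaged 10.71 in S42D, 10.27 in S42A, 9.80 in wild type and 10.38 in Tw1KD, against 8.50 in parental cells. Cd14 averaged 7.48, 7.92, 8.71, 8.62 and 7.86 in the same order of lines. The part of the fibroblast and leukocyte markers in the results of the 5 genes was not tested.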

How the data were processed

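The authors deposited log2 intensities in a table of 34760 probe sets and 15 arrays. The unit was read from the values. R 2.10.0 and affy are named, without a role, per the submitters' processing notes. Background correction, normalization between arrays and probe summary are not given in the sources used here. Per the labels' protocols, 100 ng of RNA went through an Ambion whole-transcript kit. Scaling between arrays makes each difference relative to the other transcripts.

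Of the probe sets, 21640 carried 1 gene symbol (platform annotation, updated by gene number to GRCm38.p6 for 21553), 1321 several and 11799 none. The brightest probe set by mean over all arrays stood for a gene. A single model of all 15 arrays gave each line its own mean (limma 3.58.1, R 4.3.3), and genes were called at an adjusted p under 0.05 within each of 10 comparisons. Errors are SE for differences and SD for levels, n = 3. No filter on dim genes was applied. Alternatives were median centring, quantile normalization, a dim-gene filter, the mean of a gene's probe sets, a trended robust variance prior, only the compared lines, the replicate block and leaving out each array. The fit was tested on simulated data. The number of arrays limits the precision.

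Members and lists were chosen with earlier results of these data known. The named genes are the 5 members, Twist1, up to 3 called genes per list, comparison and direction, and the genes most correlated with a member whose line means spanned at least 1 log2. Adm2, Iapp, Calcr, Gpr182, Mme, Epas1 and the marker genes were named from their lists after their values were seen. Of 139 list genes, 130 were measured.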

Additional observations from a re-analysis of the deposited data

Results flagged for a closer look

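Calcrl drew attention because it differed between the substituted and the wild-type lines and lay on opposite sides of Tw1KD in them. The differences between these lines were those tested above, 3.78 log2 for S42D minus wild-type Twist1 and 2.68 for S42A minus wild-type Twist1. Every array of the substituted lines lay above every wild-type array. The differences of Calcrl against Tw1KD share the Tw1KD arrays that its choice used and were not tested. Adm drew attention in the same way with the signs turned. Its tested differences were -2.09 for S42D and -2.02 for S42A against the wild-type line. For both genes the difference between lines was part of what drew attention, so it is no separate test of the pattern. The rise of Adm in the wild-type line against Tw1KD, on which the opposite sign rests, was small (0.37).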

How the results depend on the processing

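Calcrl kept its direction and call in all 13 alternatives of each tested comparison, with 3.70 to 3.85 for S42D minus wild type, 2.60 to 2.74 for S42A minus wild type and 1.06 to 1.15 for S42D minus S42A. The differences of Ramp1 and Adm between S42A and wild type held likewise (-2.04 to -1.91 and -2.08 to -1.97). With arrays centred on their medians, Ramp1 in wild type minus Tw1KD was not called (-0.19), and Calcrl against parental cells, described only, became -1.62 in S42D, -2.71 in S42A and -5.36 in wild type. The same setting turned the sign of Ramp3 in S42D minus wild type (-0.016) and wild type minus parental (0.016), and of Ramp2 in S42D minus parental (0.016) and S42A minus parental (0.052). Quantile normalization gave -0.013, 0.011, 0.017 and 0.042 for these. With only the compared lines fitted, Ramp1 in S42D minus wild type was called (-0.15).

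Without single arrays, Adm in wild type minus Tw1KD ranged from 0.32 to 0.41 and was not called without wild-type replicate 1 and without Tw1KD replicate 2. Adm in S42D minus S42A ranged from -0.19 to 0.092. Ramp2 ranged from -0.014 to 0.13 in S42A minus Tw1KD, -0.019 to 0.061 in S42D minus Tw1KD, 0.088 to 0.25 in S42A minus wild type, -0.11 to 0.034 in S42D minus S42A, -0.27 to -0.13 in wild type minus parental and -0.098 to 0.046 in S42A minus parental. Ramp3 ranged from -0.30 to -0.091 in S42A minus Tw1KD, -0.12 to 0.056 in S42A minus wild type and -0.028 to 0.14 in S42D minus S42A. Ramp2 was called without S42A replicate 3 (0.25, S42A minus wild type) and without wild-type replicate 3 (-0.27, wild type minus parental), and Ramp3 without S42A replicate 1 (-0.30, S42A minus Tw1KD). The cause was not tested. Leaving out dim genes kept 13549 genes and dropped Ramp2 and Ramp3, so they have no value there.

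The replicate numbers showed no consistent pairing of the arrays. Same-numbered arrays of different lines had correlations of their deviations from -0.39 to 0.42, and 7 of 30 were above 0.1. With the replicate block no call of a member changed, and the number of genes called was 8468 against 8630 without it for S42D minus wild type. Median centring moved the share of calls that were higher to 64.3%, against 49.0%, for wild type minus Tw1KD, and to 73.0%, 72.8% and 71.6%, against 53.5%, 56.1% and 51.0%, for S42D, S42A and wild type minus parental. In wild type minus parental it moved the median of all genes to 0.074, against -0.050 as deposited. Counts of genes called moved by at most 1.22 times in any alternative. Signal near background limits Ramp2, Ramp3, Calcrl in the wild-type line and Adm in S42D and S42A.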

Other observations

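The probe set that carries the symbols of both Malat1 and Ramp2 read 13.15 to 13.34 over the 15 arrays. Which of these transcripts it reads was not tested.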
